A study of Caenorhabditis elegans with 8 samples.

Results

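The genes described here are 8 heat shock chaperone genes of *Caenorhabditis elegans*, measured in late embryos. They were chosen by name: every non-control probe whose sequence name in the array design stands for *hsp-1* (F26D10.3), *hsp-3* (C15H9.6), *hsp-4* (F43E2.8), *hsp-16.1* (T27E4.8), *hsp-16.2* (Y46H3A.3), *hsp-16.41* (Y46H3A.2), *hsp-16.48* (T27E4.3) or *hsp-70* (C12C8.1) was taken, which gave 22 probes for 8 of the 19795 genes on the array. RNA of whole hermaphrodite embryos at the pretzel stage, when the embryo lies folded inside the eggshell, was measured on 1-colour Agilent arrays, each array holding the RNA of 1 sample. There were 4 samples of *aptf-1(gk794)*, a mutant in the gene of an AP2 transcription factor required for sleep behaviour, and 4 wild-type (N2) samples. A sample held about 3000 hand-picked embryos of worms kept on plates with *E. coli* OP50. The mutation is carried by every cell of the animal, and the RNA came from whole embryos. A difference can therefore not be assigned to a cell such as RIS, the single sleep-active neuron in which the study followed *aptf-1*. None of the samples was given a heat shock by its label. The sample records give growth at 21.5°C and the study's general methods give another temperature, so the spread of temperature-sensitive genes between the samples is described beside the difference between the genotypes.

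Heat shock proteins are molecular chaperones that bind unfolded proteins. The transcription factor HSF-1 drives the cytosolic heat shock response: the small heat shock proteins of the HSP-16 family and the inducible cytosolic Hsp70 are at low levels in unstressed worms and rise strongly after heat, whereas *hsp-1* encodes the constitutive cytosolic Hsp70 that folds proteins under all conditions. The endoplasmic reticulum has its own Hsp70, BiP, made by *hsp-3* and *hsp-4*, of which *hsp-4* is the form that rises in the unfolded protein response through IRE-1 and XBP-1. The promoter of *hsp-16.2* is a common tool for switching on transgenes with heat, and the study used it in that way in adult worms.

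The 4 *hsp-16* genes lie on chromosome V in 2 clusters. In the order of the annotation *hsp-16.2* and *hsp-16.41* are next to each other with 0 protein-coding genes between them, and *hsp-16.1* and *hsp-16.48* are followed by *hsp-16.49* and *hsp-16.11*, again with 0 protein-coding genes between neighbours. *hsp-16.49* and *hsp-16.11* are near-identical copies of *hsp-16.48* and *hsp-16.1*, and 0 of these 2 copies had a probe under its own name. A probe of *hsp-16.1* or *hsp-16.48* may therefore also read its copy, and their signals are uncertain in that sense. *hsp-1* lies on chromosome IV, *hsp-3* on X, *hsp-4* on II and *hsp-70* on I.

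All 22 probes were well above background on all 8 arrays and none of their spots was marked as an outlier or saturated. Values are log2 intensities relative to the 75th percentile of the array and, for genes with several probes, the mean over the probes. Because probes differ in brightness, a level is compared between samples and never between genes. The arrays lay on 2 slides, with replicates 1 and 2 of both genotypes on slide 1 and replicates 3 and 4 on slide 2. The samples may also have been collected in these batches, and slide and collection cannot be told apart. Between 79.38% and 83.13% of probes were well above background on an array, and the correlation between arrays was 0.971 to 0.996. As a check of the labels, *aptf-1* gave -1.53 ± 0.19 (SD, n = 4) in the mutant and 0.53 ± 0.23 (SD, n = 4) in N2. The mutant signal was 24.1% of that of N2 (adjusted p = 0.00204, limma). Whether this probe lies in the mutated segment was not examined.

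None of the 8 genes passed the test between *aptf-1* mutant and wild-type embryos by limma, and the inducible cytosolic genes varied more between the mutant samples than the constitutive genes did. Among the 4 mutant samples the range was 6.44-fold for *hsp-16.1*, 4.18-fold for *hsp-70*, 2.90-fold for *hsp-16.2*, 2.76-fold for *hsp-16.48* and 1.93-fold for *hsp-16.41*, against 1.16-fold for *hsp-1* and 1.19-fold for *hsp-3*. Among the 4 wild-type samples the inducible cytosolic genes had ranges from 1.31-fold for *hsp-16.48* to 2.38-fold for *hsp-70*, and *hsp-1* and *hsp-3* had 1.38-fold and 1.22-fold, so that there the classes overlapped. All 5 inducible cytosolic genes were highest in the same sample, *aptf-1* replicate 3. Since whole embryos were measured, a change in the number of cells that express a gene and a change in RNA per cell cannot be told apart.

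**Figure D1:**
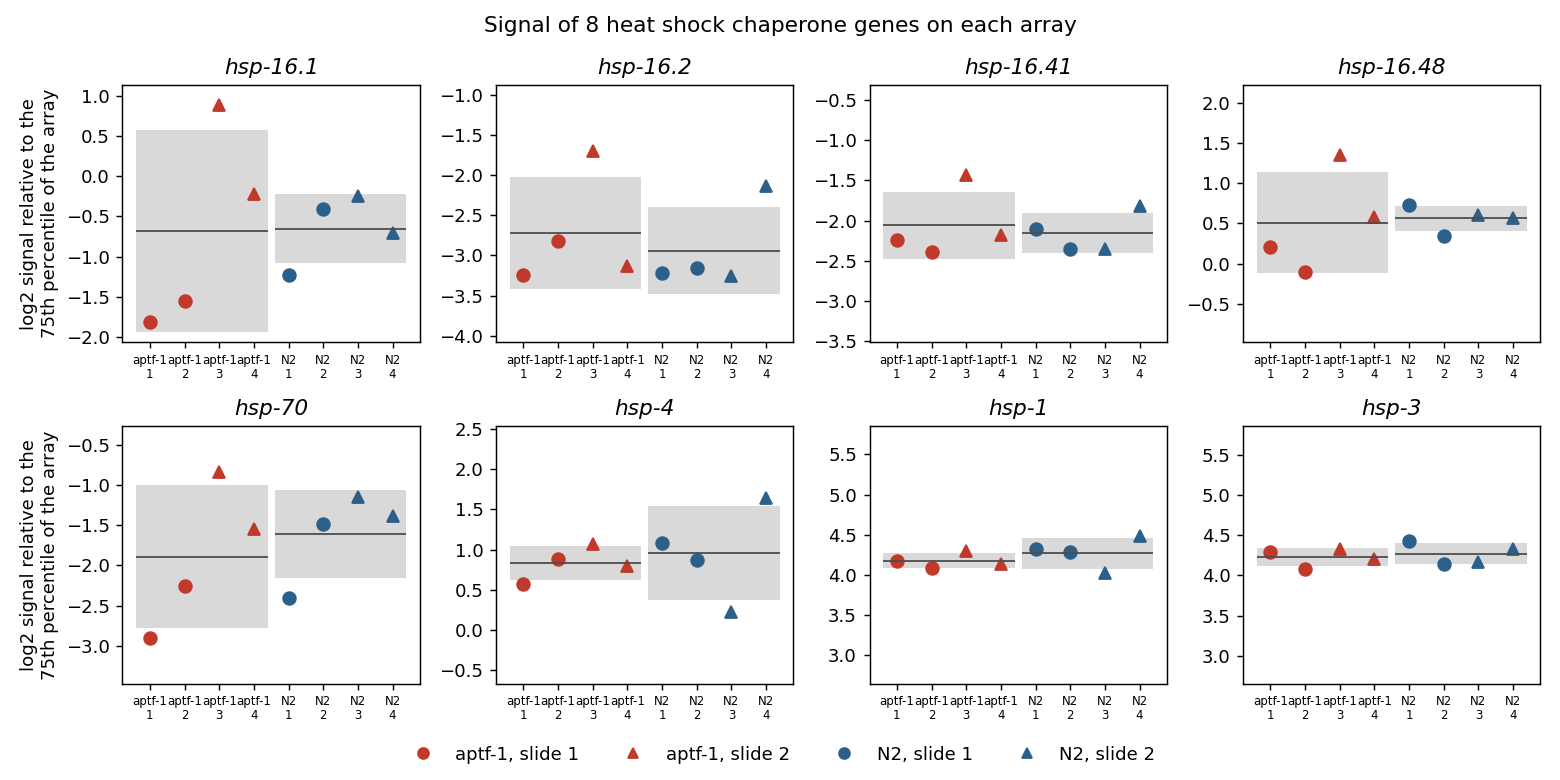
Signal of the 8 genes on each array, as log2 intensity relative to the array's 75th percentile (vertical axis, of equal length but different position in each panel), for *aptf-1* replicates 1 to 4 in red and N2 replicates 1 to 4 in blue, with circles for slide 1 and triangles for slide 2. Lines are means and grey boxes 1 SD of 4 samples. The genotypes overlap in every panel, and *hsp-16.1* and *hsp-70* are widely spread while *hsp-1* and *hsp-3* are not.

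Among the HSP-16 genes, which encode small chaperones that hold unfolded proteins until an Hsp70 can refold them, *hsp-16.1* gave -1.81, -1.55, 0.88 and -0.22 in *aptf-1* replicates 1 to 4 and -1.23, -0.41, -0.24 and -0.71 in N2 replicates 1 to 4. The mutant samples lay on both sides of all wild-type samples, with replicates 1 and 2 below them, replicate 3 well above and replicate 4 only just above. The means were -0.68 ± 1.25 (SD, n = 4) and -0.65 ± 0.43 (SD, n = 4), and the log2 fold change of -0.03 was far inside its standard error of 0.56 (two-sided exact permutation p = 0.971).

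The neighbouring gene *hsp-16.48* gave 0.21, -0.11, 1.35 and 0.58 in *aptf-1* replicates 1 to 4 and 0.73, 0.34, 0.60 and 0.57 in N2 replicates 1 to 4. Again replicates 1 and 2 of the mutant were the lowest of the 8 samples and replicate 3 the highest, while the wild-type samples stayed within a 1.31-fold range. The means of 0.51 ± 0.63 (SD, n = 4) and 0.56 ± 0.16 (SD, n = 4) differed by -0.05 with a standard error of 0.28 (exact permutation p = 0.857).

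*hsp-16.2* gave -3.24, -2.82, -1.70 and -3.13 in *aptf-1* replicates 1 to 4 and -3.22, -3.15, -3.26 and -2.14 in N2 replicates 1 to 4. Here 1 sample of each genotype stood above the rest, *aptf-1* replicate 3 and N2 replicate 4, and the other 6 lay close together. The mutant was higher by 0.22 with a standard error of 0.38 (exact permutation p = 0.514), and without *aptf-1* replicate 3 the difference of the means was -0.12.

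*hsp-16.41*, the neighbour of *hsp-16.2*, gave -2.24, -2.39, -1.44 and -2.18 in *aptf-1* replicates 1 to 4 and -2.11, -2.35, -2.35 and -1.82 in N2 replicates 1 to 4. The same 2 samples were the highest. The log2 fold change was 0.10 with a standard error of 0.22 (exact permutation p = 0.714), and -0.11 without *aptf-1* replicate 3. It is the only HSP-16 gene here with 2 probes, and they did not follow each other on every array. Relative to its own mean, probe A_12_P110692 was at -0.68 in *aptf-1* replicate 2 and 0.11 in N2 replicate 4, where probe A_12_P134114 was at 0.13 and 0.48. Both were highest in *aptf-1* replicate 3, at 0.72 and 0.61.

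*hsp-70*, the inducible cytosolic Hsp70, gave -2.90, -2.26, -0.84 and -1.55 in *aptf-1* replicates 1 to 4 and -2.40, -1.49, -1.15 and -1.39 in N2 replicates 1 to 4. In both genotypes replicates 3 and 4, from slide 2, were above replicates 1 and 2. The means were -1.89 ± 0.89 (SD, n = 4) and -1.61 ± 0.55 (SD, n = 4), and their difference was -0.28 with a standard error of 0.44 (exact permutation p = 0.629). Without *aptf-1* replicate 3 the difference was -0.63.

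*hsp-4*, the inducible BiP, gave 0.57, 0.88, 1.07 and 0.80 in *aptf-1* replicates 1 to 4 and 1.08, 0.87, 0.23 and 1.64 in N2 replicates 1 to 4. Its extremes were both wild-type samples, N2 replicates 3 and 4, and the mutant samples lay between them. The genotypes differed by -0.13 with a standard error of 0.27 (exact permutation p = 0.743).

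The constitutive genes were steady. *hsp-1* gave 4.18, 4.09, 4.30 and 4.14 in *aptf-1* replicates 1 to 4 and 4.32, 4.28, 4.02 and 4.48 in N2 replicates 1 to 4, which is a difference of -0.09 with a standard error of 0.11 (exact permutation p = 0.4). All 6 of its probes had a slightly negative log2 fold change, from -0.20 to -0.03. *hsp-3*, the BiP gene that is expressed without stress, gave 4.29, 4.08, 4.33 and 4.21 in *aptf-1* replicates 1 to 4 and 4.43, 4.14, 4.17 and 4.33 in N2 replicates 1 to 4. The genotypes differed by -0.04 with a standard error of 0.10 (exact permutation p = 0.686), and its 9 probes ranged from -0.13 to 0.27, with 8 of them negative. For both genes the genotypes overlapped.

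Over the 8 genes, 2 had a positive and 6 a negative log2 fold change between the genotypes, with a median of -0.04, where the median of all 17064 genes tested was -0.02. The adjusted p of each of the 8 genes was 1.0 (limma, Benjamini-Hochberg over all genes). By limma, 0 of the 8 genes and 0 of the 22 probes passed both limits of a call (fold of at least 1.5 and an adjusted p under 0.05), and 0 genes and 0 probes were at an unadjusted p under 0.05. The background was 0.041% of genes and 0.0504% of probes called, and 3.22% of genes at an unadjusted p under 0.05. The genotypes overlapped in all 8 genes, and over all genes 2.17% had groups that did not overlap. A missed threshold does not show equal levels. The standard errors of *hsp-16.1*, *hsp-70* and *hsp-16.2*, 0.56, 0.44 and 0.38, leave room for a change of the size that a call asks for. Those of *hsp-16.48* and *hsp-4*, 0.28 and 0.27, also leave such room. That of *hsp-16.41* is 0.22, and those of *hsp-1* and *hsp-3* are 0.11 and 0.10. The direction was not the same on both slides. On slide 1, 7 of the 8 genes were lower in the mutant (differences from -0.86 to 0.16), and on slide 2, 6 of the 8 were higher (differences from -0.02 to 0.80). On slide 2 the higher values came from 1 of the 2 mutant samples: *aptf-1* replicate 3 was above the mean of the wild-type samples of that slide in 8 of 8 genes, and *aptf-1* replicate 4 in 1 of 8, *hsp-16.1*, with differences from -0.43 to 0.25. For *hsp-16.1* the differences between the genotypes were -0.86 and 0.80, for *hsp-16.48* -0.48 and 0.38, and for *hsp-70* -0.63 and 0.08. The difference between the slides in this contrast was not tested.

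**Figure D2:**
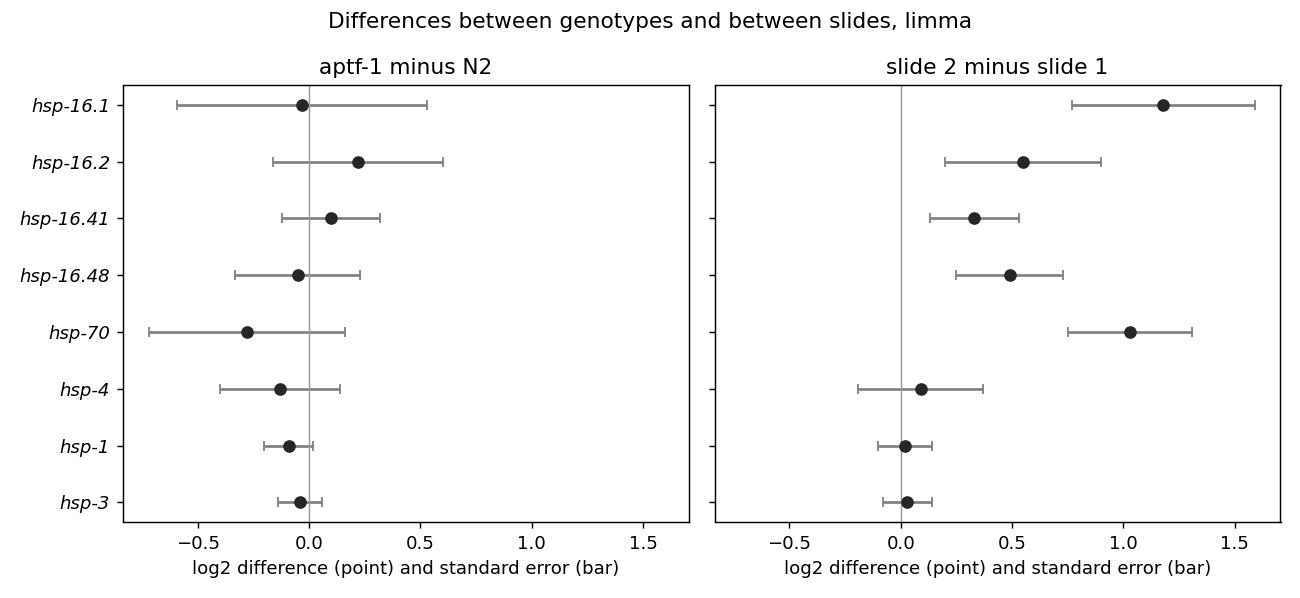
Log2 difference of each gene between the genotypes (left, *aptf-1* minus N2) and between the slides (right, slide 2 minus slide 1, with genotype in the fit), with standard errors from limma as bars. The differences between genotypes lie on both sides of 0 between -0.28 and 0.22, and all 8 differences between slides are above 0, up to 1.18 for *hsp-16.1*.

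Between the slides, the inducible cytosolic genes had the larger differences and the constitutive genes the smaller. *hsp-16.1* was 2.26-fold higher on slide 2 (log2 difference 1.18, standard error 0.41, unadjusted p = 0.0211 and adjusted p = 0.994 from limma with genotype in the fit) and *hsp-70* 2.04-fold higher (log2 difference 1.03, standard error 0.28, unadjusted p = 0.00708 and adjusted p = 0.994 from limma). Neither passed the adjusted threshold. The other log2 differences were 0.55 for *hsp-16.2*, 0.49 for *hsp-16.48*, 0.33 for *hsp-16.41*, 0.09 for *hsp-4*, 0.03 for *hsp-3* and 0.02 for *hsp-1*. All 8 were positive with a median of 0.41, and the median of all genes was 0.0. By limma 0 of the 8 genes and 0 of the 22 probes were called, and 2 genes and 2 probes were at an unadjusted p under 0.05. In the background 0.0% of genes and 0.0% of probes were called, and 2.82% of genes were at an unadjusted p under 0.05. Within the genotypes the slide difference of *hsp-16.1* was 2.01 among the mutant samples and 0.34 among the wild-type samples, that of *hsp-16.48* was 0.92 and 0.05, and that of *hsp-70* was 1.38 and 0.68. Without *aptf-1* replicate 3 the slide difference of *hsp-16.1* was 0.79, that of *hsp-70* 0.82, that of *hsp-16.2* 0.25, that of *hsp-16.41* 0.14 and that of *hsp-16.48* 0.25.

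The pooled spread within genotype was larger for the inducible than for the constitutive genes. For the HSP-16 genes much of it came from *aptf-1* replicate 3. The pooled SD within genotype was 0.93 for *hsp-16.1*, 0.74 for *hsp-70*, 0.62 for *hsp-16.2*, 0.46 for *hsp-16.48*, 0.44 for *hsp-4*, 0.35 for *hsp-16.41*, 0.15 for *hsp-1* and 0.12 for *hsp-3*, in log2 units. Over all genes the median was 0.20 and the 90th percentile 0.46. Without *aptf-1* replicate 3 the pooled SD was 0.675 for *hsp-16.1*, 0.614 for *hsp-70*, 0.41 for *hsp-16.2*, 0.271 for *hsp-16.48* and 0.195 for *hsp-16.41*, and 0.14 for *hsp-1* and 0.122 for *hsp-3*. For *hsp-70* other samples weighed nearly as much: it was 0.635 without *aptf-1* replicate 1 and 0.641 without N2 replicate 1. For *hsp-16.2* it was 0.497 without N2 replicate 4. In wild-type samples alone the SD of *hsp-16.48*, 0.16, was below that of *hsp-1*, 0.19. With all 8 samples kept, the pooled SD within genotype of *hsp-16.1* was above that of 98.4% of all genes. That of *hsp-70* was above 97.0%, whereas *hsp-1* and *hsp-3* were above 29.9% and 18.3%. Averaging over probes lowers the SD, and *hsp-1* and *hsp-3* have the most probes. Taken singly, though, their probes had SDs from 0.13 to 0.19 and from 0.15 to 0.23, below that of every single-probe gene of the inducible set. Signal level also affects the SD. Among genes within 0.5 log2 units of its own level, *hsp-16.1* was above 99.9% of 2129 genes, *hsp-70* above 99.2% of 1887, *hsp-16.48* above 98.1% of 2219, *hsp-4* above 97.8% of 2002, *hsp-16.2* above 97.3% of 1526 and *hsp-16.41* above 89.1% of 1732. At their own levels *hsp-1* was above 39.4% of 231 genes and *hsp-3* above 24.8% of 226. For *hsp-16.41* and *hsp-3* this level is a mean over probes of unlike brightness. The probes of *hsp-16.41* had medians of 0.09 and -4.36, and those of *hsp-3* ran from -1.09 to 5.46. The percentiles of these 2 genes at matched level are therefore uncertain. These percentiles describe the arrays and carry no test.

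**Figure D3:**
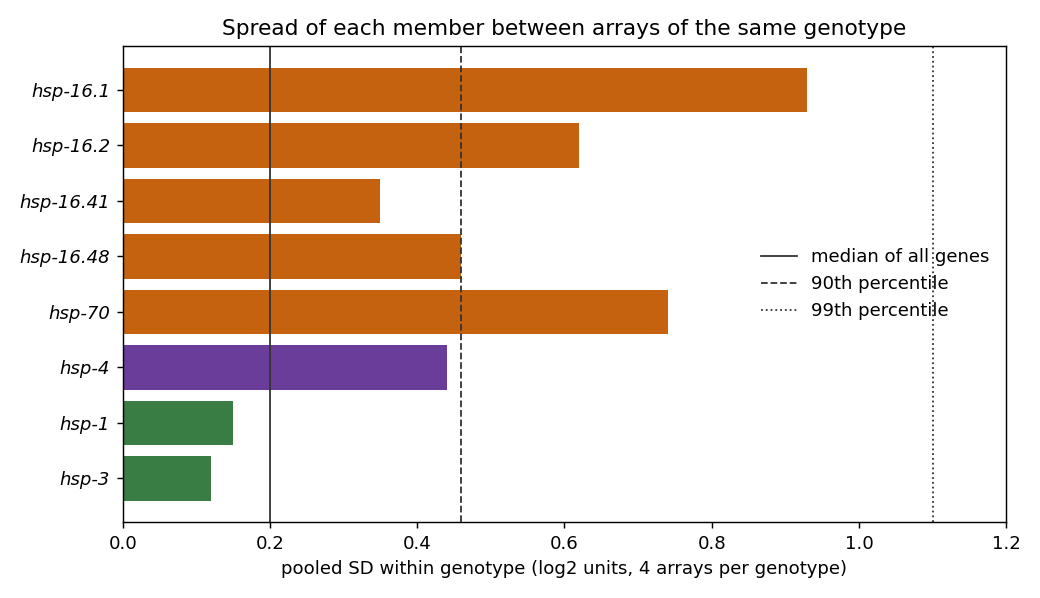
Pooled standard deviation within genotype of each gene (bars, log2 units, 4 samples per genotype), with the inducible cytosolic genes in orange, *hsp-4* in purple and the constitutive genes in green. Vertical lines mark the median (0.20), the 90th percentile (0.46) and the 99th percentile (1.1) of all genes; *hsp-16.1*, *hsp-16.2* and *hsp-70* are past the 90th percentile and *hsp-1* and *hsp-3* below the median.

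Sample by sample, the inducible cytosolic genes shared their peak, and the constitutive genes, as means over their probes, had theirs in other samples. Relative to each gene's own mean over the 8 arrays, the mean deviation of the 5 inducible cytosolic genes was -0.63, -0.46, 1.01 and 0.06 in *aptf-1* replicates 1 to 4 and -0.28, -0.05, 0.08 and 0.27 in N2 replicates 1 to 4. This is a 3.13-fold range with its low end in *aptf-1* replicate 1 and its high end in *aptf-1* replicate 3. The mean deviation of *hsp-1* and *hsp-3* stayed between -0.15 and 0.17, a 1.25-fold range. *aptf-1* replicate 3 was the highest sample for 5 of the 5 inducible genes and 0 of the 2 constitutive genes. Taken singly, most probes of *hsp-1* and *hsp-3* peaked in N2 replicates 1 or 4. The exceptions, A_12_P100943 of *hsp-1* and A_12_P151240, A_12_P151241 and A_12_P168779 of *hsp-3*, peaked in *aptf-1* replicate 3. Over all 16933 genes measured in every sample, 13.5% were highest in that sample, which was singled out after its values were seen. In *hsp-16.1* it was 1.1 log2 units above the next sample of its genotype, in *hsp-16.2* 1.11, in *hsp-16.48* 0.77, in *hsp-16.41* 0.74 and in *hsp-70* 0.72. It was also the highest mutant sample for *hsp-4*, *hsp-1* and *hsp-3*, by 0.20, 0.13 and 0.04. Because it was the highest mutant sample for each gene, leaving it out could only lower the genotype differences. For the inducible cytosolic genes they became -0.55 for *hsp-16.1*, -0.33 for *hsp-16.48* and the values given above for the others.

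**Figure D4:**
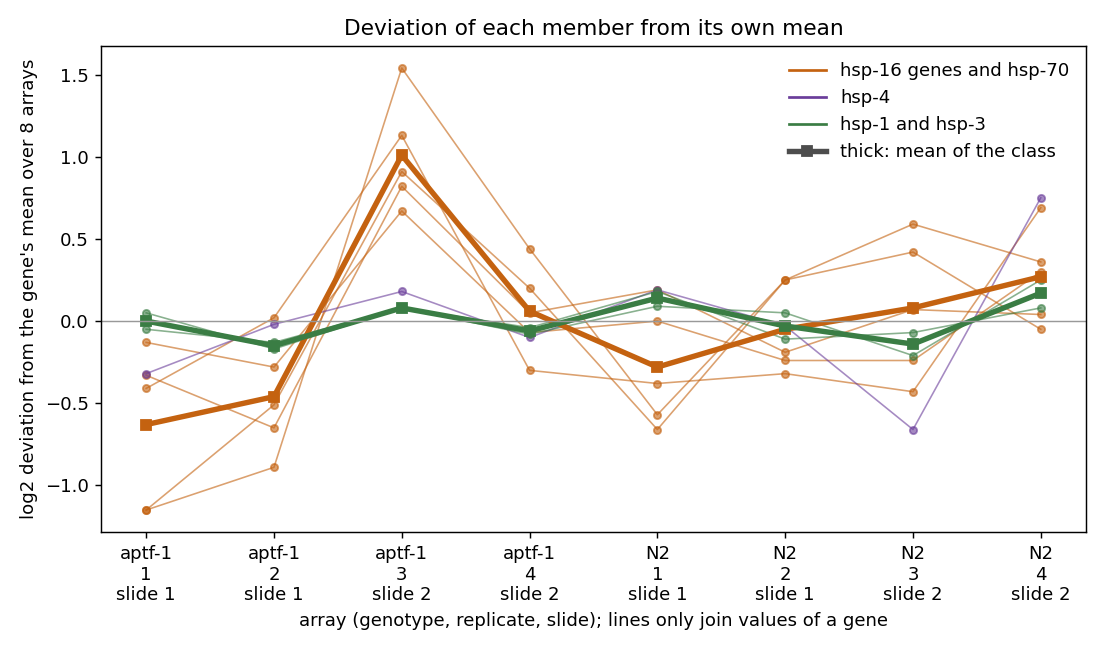
Log2 deviation of each gene from its own mean over the 8 arrays (vertical axis) on each array (horizontal axis, with genotype, replicate and slide), with thin lines for single genes and thick lines for the mean of the 5 inducible cytosolic genes (orange) and of the 2 constitutive genes (green); *hsp-4* is purple. The orange mean runs from -0.63 to 1.01 and peaks in *aptf-1* replicate 3, and the green mean stays between -0.15 and 0.17.

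The relation of *hsp-16.2* to the other genes over the 8 arrays rested largely on 2 samples, though less so for *hsp-4*. Pearson's r was 0.90 with *hsp-16.41* (exact permutation p = 0.0288, adjusted over the 7 pairs p = 0.202), and Spearman's rho was 0.52 (exact permutation p = 0.197, adjusted p = 0.572). The other r values were 0.65 with *hsp-4*, 0.58 with *hsp-16.48*, 0.57 with *hsp-1*, 0.55 with *hsp-16.1*, 0.55 with *hsp-70* and 0.28 with *hsp-3*, with adjusted p from 0.23 to 0.488 in exact permutation tests. The highest rho was that with *hsp-4*, 0.69 (exact permutation p = 0.0694, adjusted p = 0.486). *aptf-1* replicate 3 and N2 replicate 4 were the samples farthest from the median of *hsp-16.2*. Without them r was -0.45 with *hsp-16.41*, 0.40 with *hsp-4* and from -0.76 to -0.13 with the others. The points share arrays and scaling, and probes of similar genes can bind each other's RNA.

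**Figure D5:**
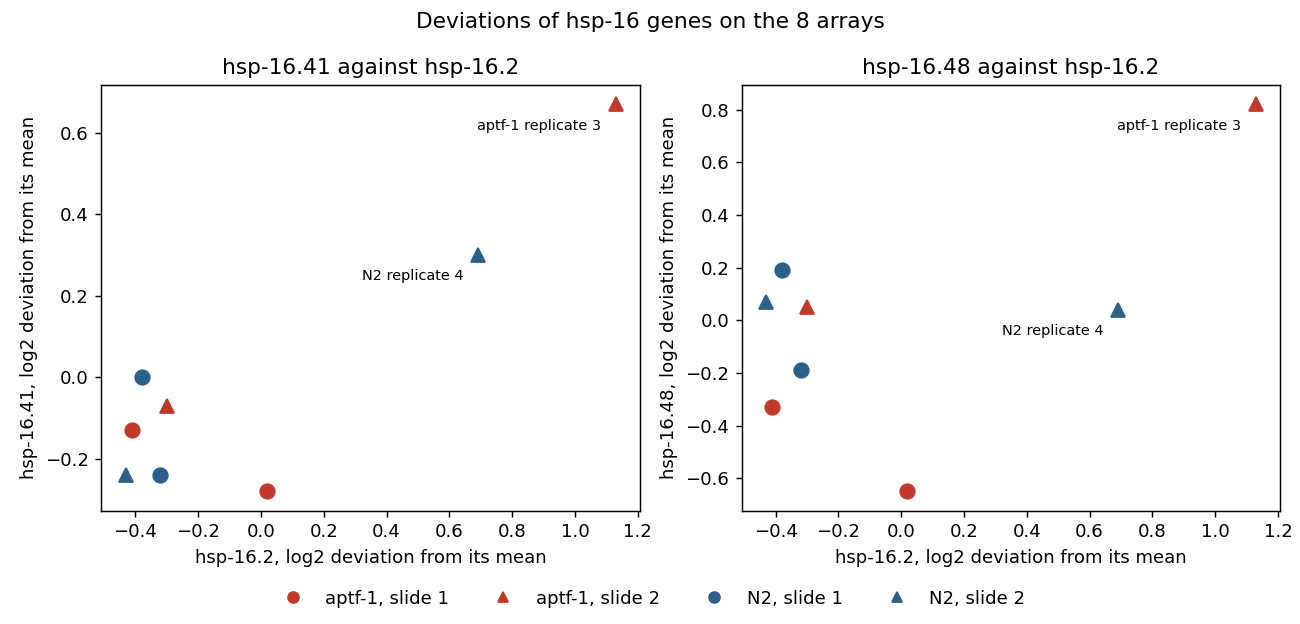
Deviation of *hsp-16.41* (left) and *hsp-16.48* (right) from their means against that of *hsp-16.2*, in log2 units, for the 8 arrays, with colours and symbols for genotype and slide. *aptf-1* replicate 3 and N2 replicate 4 lie to the right of the other 6 samples; r over 8 arrays is 0.90 on the left and 0.58 on the right, and -0.45 and -0.76 without these 2.

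The rest of the chaperone network was compared in the same way, from lists of known genes. In the HSF-1 axis, *hsf-1* itself gave -0.11, -0.20, 0.04 and -0.27 in *aptf-1* replicates 1 to 4 and -0.03, -0.01, -0.25 and -0.37 in N2 replicates 1 to 4, with a log2 fold change of 0.02 (adjusted p = 1.0, limma). The inhibitor *hsb-1* and the HSF-1 partner genes *ddl-1* and *ddl-2* had log2 fold changes of 0.10, 0.05 and 0.01, so 0 of 4 genes were called and 0 were at an unadjusted p under 0.05 by limma.

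Of 19 other cytosolic chaperones 0 were called. *F44E5.5*, a further heat-inducible Hsp70, was the most negative at -0.36 (standard error 0.54, adjusted p = 1.0, limma) and the co-chaperone *dnj-12* the most positive at 0.31. *F44E5.5* gave -1.32, -1.25, 1.06 and -0.01 in *aptf-1* replicates 1 to 4 and -0.93, 0.09, 0.49 and 0.27 in N2 replicates 1 to 4. Its order of samples resembled that of *hsp-70* and *hsp-16.1*: it was also highest in *aptf-1* replicate 3, its pooled SD was 0.92, and its log2 difference between slides was 1.30 (unadjusted p = 0.0049 and adjusted p = 0.994, limma). Its probes may also read the near-identical *F44E5.4*, which had no probe under its own name. In the same list 9 of 19 genes were highest in *aptf-1* replicate 3, among them *hsp-90*, *hsp-110* and the Hsp40 gene *dnj-13*, at smaller deviations: *hsp-110* had 0.46 there against a median of 0.04.

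Of 8 other small heat shock proteins 0 were called and 0 were highest in *aptf-1* replicate 3. Their log2 fold changes ran from -0.20 for *hsp-12.2* to 0.26 for *hsp-12.1*. The exception at an unadjusted p under 0.05 by limma was *hsp-17*, with 1.66 to 1.77 in the mutant and 1.83 to 2.01 in N2 and an adjusted p of 1.0. Of 16 genes of endoplasmic reticulum stress and folding 0 were called, from *ckb-2* at -0.24 to the disulphide isomerase *pdi-2* at 0.28. Of 6 genes of mitochondrial folding and stress 0 were called, from the mitochondrial Hsp70 *hsp-6* at -0.22 to *ubl-5* at 0.11. Of 9 metal and oxidative stress genes 0 were called, from the metallothionein *mtl-1* at -0.77 (unadjusted p under 0.05 but adjusted p = 1.0, limma) to *gcs-1*, which acts in glutathione synthesis, at 0.08. The medians of these lists lay between -0.11 and 0.04, and *hsp-17* and *mtl-1* were the only genes of the 6 lists at an unadjusted p under 0.05. Of the endoplasmic reticulum genes 5 of 16 were highest in *aptf-1* replicate 3. For the mitochondrial and the metal and oxidative stress lists this was 0 of 6 and 1 of 9. Over all genes it was 13.5%.

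The tissue and stage markers gave no called gene between the genotypes in any of 7 lists, 43 genes in all. Muscle, pharynx, intestine, epidermis, neuron and early embryo genes were all measured, as in whole embryos, and 0 of the 43 were at an unadjusted p under 0.05 by limma. Over all genes 13.5% were highest in *aptf-1* replicate 3, and of the 70 genes of the chaperone and stress lists, members included, 21 were. Of the 43 marker genes, 12 were at their highest there, among them 3 of 5 epidermis and cuticle genes. The log2 of the summed signal of that list was 7.41 there, inside the range of 6.98 to 7.69 of the mutant samples. Such a sum is weighted towards the brightest genes, here *dpy-17*, at 6.68 there and 7.28 in *aptf-1* replicate 1. A shift in dimmer genes hardly moves it. In 3 of the 7 lists the sum was the highest of the mutant samples there: body wall muscle at 7.0 (mutant samples from 6.84, N2 6.84 to 7.02), intestine at 5.49 (mutant samples from 5.30, N2 5.35 to 5.65) and neurons at 5.23 (mutant samples from 5.04, N2 5.01 to 5.32). In 0 of the 7 lists was it above all wild-type samples. *rol-6*, a cuticle collagen gene, ran from -1.84 to 2.52 with its top in the same sample. Of the 9 early embryo and oocyte genes, 3 (*mex-5*, *mex-6* and *pie-1*) were highest in that sample, whereas *oma-1* was at its lowest there, -4.60. The part of tissue makeup or stage in the spread of the heat shock genes was not tested.

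The 5 genes outside the set whose pattern over the 8 arrays was most like the mean of the 4 *hsp-16* genes were *C32B5.13* (r = 0.949), *F38B6.8* (r = 0.947), *dmd-10* (r = 0.939), *sri-54* (r = 0.935) and *C50D2.6* (r = 0.930), of 16925 genes compared. All 5 have 1 probe and were highest in *aptf-1* replicate 3. The *hsp-16* mean peaks there, so genes chosen for likeness to it tend to peak there by that choice. With 8 arrays and this many genes, high r values also arise by chance. Their spreads were unlike one another: the pooled SD was 0.82 for *F38B6.8* and 0.08 for *C50D2.6*.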

How the data were processed

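The authors deposited the scanner files of 8 Agilent arrays, read with Feature Extraction 10.7.3.1, with a background-corrected intensity for each of 45220 spots, and a table of log2 values. The samples were collected as separate biological samples. The deposited log2 table holds the same arrays after quantile normalization: its column medians were 8.582 to 8.583 and each column ranked the probes as the scanner intensity did. It was used as an alternative. The array design carries gene names of WormBase release WS170, which were matched by sequence name to the current symbols; genome coordinates were not used, since the reference table is of another build.

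Each intensity was taken as log2 relative to the array's 75th percentile, spots marked as outliers were left out (62 to 188 per array), spots of a probe were averaged, and a probe was kept if 4 or more arrays showed it well above background (35742 probes, 17067 genes). limma 3.58.1 in R 4.3.3 tested genotype, and slide with genotype in the fit, across all probes and across gene means, with Benjamini-Hochberg adjustment over all. Some probes or genes could not be fitted in a given contrast. The number of arrays, 4 per genotype, limits the precision. The members and gene lists were chosen with earlier results of these data known. The genes named are the 8 members, *hsf-1*, the most positive and most negative gene of each pathway list, any called gene of these lists, and the 5 genes most like the *hsp-16* mean; others are named where they stood out and were chosen after their values were seen. Normexp was run on the median spot signal, as the files used here hold no mean signal. The alternatives were the scaling, background, filter, outlier spots, moderation, blocks, the methods' t-test and each array left out.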

Additional observations from a re-analysis of the deposited data

Results flagged for a closer look

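In a group of 4 samples a value was marked when its gap to the nearest other sample, divided by the range of the group, was above Dixon's critical value for 4 samples. Of 18 groups examined 2 held such a value, and chance alone marks about 1 in 20. The gap of *hsp-16.2* in N2 replicate 4 was 0.899 of the range: that sample gave -2.14 and the other wild-type samples -3.26 to -3.15. The share of probes well above background in N2 replicate 2 had a gap of 0.971, at 79.38% against 82.44% to 82.53% in the other wild-type samples. All member probes were well above background there too.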

How the results depend on the processing

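Under every alternative 0 member probes were called between the genotypes, and between the slides 0 were called except at an unadjusted p under 0.05 with a fold of at least 1.5, which gave 2. Over all probes, 18 were called between the genotypes; this became 264 at an unadjusted p, 7 in a test per gene, 11 with the slide as a block, 3 with the methods' t-test after adjustment, 0 with the replicate block, and 4 to 16 with each array left out (4 without N2 replicate 3). Between the slides 0 probes became 330 at an unadjusted p. Correlations of the deviations of same-numbered samples were 0.521, 0.284, -0.118 and 0.09 for numbers 1 to 4. For samples with unlike numbers they ran from -0.376 to 0.233. Numbers 1 and 2 were above that range and numbers 3 and 4 inside it. Whether the numbers mark pairs is not settled by these values, and the main test used no pairs. In this balanced design the replicate block leaves each difference as it was, and 0 member probes were called with it.

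Signs near 0 turned. Between the genotypes, *hsp-3* became 0.0111 with quantile normalization, 0.0108 in the deposited table, and ranged from -0.0814 to 0.0144 with arrays left out. *hsp-16.48* became 0.0121 with normexp and ranged from -0.332 to 0.156 with arrays left out. Leaving out arrays also turned *hsp-16.1* (-0.55 to 0.346), *hsp-70* (-0.626 to 0.0614), *hsp-16.2* (-0.118 to 0.489), *hsp-16.41* (-0.112 to 0.209) and *hsp-4* (-0.368 to 0.104). Between the slides *hsp-1* became -0.0137 with quantile normalization and -0.0146 in the deposited table, and ranged from -0.0605 to 0.126 with arrays left out, as did *hsp-3* (-0.029 to 0.0947) and *hsp-4* (-0.172 to 0.394). The slide differences of the 5 inducible cytosolic genes stayed positive in all 17 alternatives. Those that change the filter or moderation, or drop the genotype term, left these differences as they were and could not turn a sign. The SD of *hsp-16.2* was 0.41, of *hsp-16.41* 0.195 and of *hsp-16.48* 0.271 without *aptf-1* replicate 3, and that of *hsp-1* 0.0995 without N2 replicate 3. The causes were not tested.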
